A study of Mus musculus with 9 samples.

Results

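Oxidative phosphorylation genes encode the respiratory chain and the ATP synthase of the inner mitochondrial membrane. They were taken here by symbol: genes beginning with Ndufa, Ndufb, Ndufc, Ndufs, Ndufv, Uqcr, Atp5 or Cox4 to Cox8, together with Sdha, Sdhb, Sdhc, Sdhd and Cyc1. The rule found 91 genes among 18193 with a probe set of a single gene symbol, and each was represented by its brightest probe set. By symbol, 36 of them belonged to complex I, 4 to complex II, 9 to complex III, 17 to complex IV and 17 to complex V. The other 8 were Ndufaf genes, which the prefix Ndufa caught and which encode assembly factors of complex I, so not every gene described is a subunit gene. In 2 further cases the placement follows the symbol rather than the protein: Ndufa4 is known biochemically as a part of complex IV, and Cox7a2l encodes a factor that joins complexes III and IV into supercomplexes. The genes are all nuclear; the subunits encoded by mitochondrial DNA were not analysed here.

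The data were 9 Affymetrix arrays of granulocyte-macrophage progenitors (GMPs), the bone marrow cells from which neutrophils and monocytes arise. The genotypes were Dicer wild type, heterozygous and null, with 3 arrays each. Dicer1 encodes the enzyme that cuts microRNA precursors, and the comparison of genotypes asks what its loss changes in myeloid-committed progenitors. Donor cells came from embryonic day 13.5 fetal livers of crosses between floxed Dicer1 mice and Cebpa-Cre;R26-LSL-Eyfp mice, and were injected into C57Bl/6 recipients of 6 to 8 weeks of age after irradiation with 8.5 Gy. Cells of all 3 genotypes carried the Cebpa-Cre and Eyfp alleles; Cre was driven by Cebpa, which is active in myeloid-committed progenitors, and only EYFP-positive GMPs were sorted, 6 to 10 weeks after the transplant. One fetal liver usually served more than 1 recipient, and the labels do not tie arrays to livers or animals, so p-values measure the spread between arrays, which may in part be technical.

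Complexes I, III and IV pass electrons from NADH to oxygen and pump protons, complex II feeds in electrons from succinate, and complex V uses the proton gradient to make ATP. Apart from complex II, each complex joins a catalytic core to many small accessory subunits that stabilise it, anchor it in the membrane or help it assemble. Nuclear genes for these subunits are known targets of the transcription factors NRF1, GABP (an ETS factor) and YY1.

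Because members moved together in the null arrays, their promoters were searched for the cores of those 3 factors on both strands: GCATGCGC for NRF1, CCGGAAG for ETS factors and AAGATGGC for YY1. A RefSeq promoter (GRCm38.p6, 250 bases before to 50 after the start) was found for 74 of the 91 genes. The NRF1 core was present in 11 of them (14.9%), against 2.8% of all 27025 promoters in the table. The ETS core was present in 18 (24.3%, against 9.14%) and the YY1 core in 9 (12.2%, against 2.87%), and no ETS match overlapped a YY1 match. Any of the 3 cores was found in 32 members (43.2%, against 13.8% of all promoters). Member promoters were also richer in G and C, with a median of 58.8% against 52.7%. The 3 promoters below belong to genes lower in null than in wild-type cells. They were picked from those genes for the most kinds of core, then the most matches, then the smallest adjusted p. They show the cores in place, with matches in capitals. Each sequence is read 5′ to 3′ on the gene's own strand, which is the minus strand for all of them. Atp5k (chr5:108434350-108434649) and Atp5g2 (chr15:102670998-102671297) have the palindrome GCGCATGCGC, which holds the NRF1 core once on each strand, and Uqcr11 (chr10:80406772-80407071) has 1 NRF1 core. Atp5k also has the ETS core on the opposite strand (CTTCCGG), and Uqcr11 has it as CCGGAAG.
Atp5k: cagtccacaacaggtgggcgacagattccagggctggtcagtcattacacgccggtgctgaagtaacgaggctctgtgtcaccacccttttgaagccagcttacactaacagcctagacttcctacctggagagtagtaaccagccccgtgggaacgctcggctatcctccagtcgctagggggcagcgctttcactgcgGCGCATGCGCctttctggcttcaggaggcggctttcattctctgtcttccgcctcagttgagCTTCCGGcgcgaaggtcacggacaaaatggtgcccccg
Uqcr11: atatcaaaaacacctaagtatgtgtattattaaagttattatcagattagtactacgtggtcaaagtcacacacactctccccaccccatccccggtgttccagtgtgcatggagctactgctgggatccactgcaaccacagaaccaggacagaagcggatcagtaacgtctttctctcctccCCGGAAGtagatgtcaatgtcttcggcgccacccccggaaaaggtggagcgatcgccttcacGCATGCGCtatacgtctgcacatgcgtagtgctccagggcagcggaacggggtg
Atp5g2: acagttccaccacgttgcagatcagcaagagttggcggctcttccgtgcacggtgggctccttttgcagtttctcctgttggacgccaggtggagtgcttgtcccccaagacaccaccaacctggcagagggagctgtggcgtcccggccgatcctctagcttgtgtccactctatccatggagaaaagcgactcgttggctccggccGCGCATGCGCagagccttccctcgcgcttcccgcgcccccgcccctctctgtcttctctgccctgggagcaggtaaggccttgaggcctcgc
Of the members lower in null than in wild-type cells, 11 of 23 with a promoter had any core (47.8%), and of the other tested members 21 of 47 (44.7%). The NRF1 core alone was in 6 of the 23 and 5 of the 47, the ETS core in 5 and 13, and the YY1 core in 2 and 7; these differences were not tested. A match says only that these letters are there, not that a factor binds.

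Some facts of the arrays touch all results below. Dicer1 had a signal of 104.6 ± 9.464 on null arrays (SD, n = 3), 185.3 ± 16.1 on heterozygous and 231.9 ± 11.06 on wild-type arrays, with no overlap between groups. Null differed from wild type by -1.07 on the log2 scale (adjusted p 1.88e-05, limma), and heterozygous by -0.31 without passing the threshold (adjusted p 0.217). GMP markers, led by Ctsg, summed to signals of 29480 to 32980 in wild-type, 29330 to 34330 in heterozygous and 30370 to 32430 in null arrays. Against wild type, 2 of the 11 GMP markers were higher in null cells (Fcgr2b and Fcgr3) and 1 was lower (Csf3r). Other cell types' markers called in the same comparison were Ltf and Ngp, lower, among 6 late neutrophil genes tested, Cd68, lower, among 4 of monocytes and macrophages, Ighm, lower, among 2 of B cells, Klrd1, lower, among 2 of T and NK cells, and 3 of 5 of mast cells, basophils and eosinophils (2 higher, 1 lower). None of 3 erythroid or 3 megakaryocyte markers was called by limma, and none had an unadjusted p under 0.05. Late neutrophil markers summed to 735.3 to 1556 in wild-type, 224.5 to 367.7 in heterozygous and 264.7 to 770.9 in null arrays, and B cell markers to 1152 to 1391, 1047 to 1155 and 522.6 to 608. The labels describe the mice as female, yet 8 arrays had Eif2s3y, a Y-linked gene, at 622.2 to 859.3 and Xist at 16.45 to 30.2; wild-type replicate 2 alone had Eif2s3y at 1.125 and Xist at 2610. The calls of null against wild type are therefore also given without that array. In sorted bulk cells, fewer cells of a type and less RNA per cell cannot be told apart.

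Of the 91 genes, 86 had a mean level at or above the 40th percentile of all probe sets other than controls and were tested. Cox7a1, Cox7b2, Cox8b and Ndufa4l2, isoforms best known from other tissues, and Ndufb4, as read by the 1 probe set used, were too dim, with group means of 1.844 to 6.453. Levels and differences are in log2(signal + 12), and a gene is called when its limma p, adjusted over all 12347 genes tested, is under 0.05.

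In null cells 26 of the 86 genes were lower than in wild type and 1 was higher. The lower share was 30.2%, against 8.09% of all genes tested (999 genes), and the higher share 1.16%, against 7.6% (938 genes). The median difference of the members was -0.22, against -0.04 over all genes. Differences were small: 72 members (83.7%) had a difference below 0, as did 56.1% of all genes tested and 66% of bright and short ones, and the lowest was -0.71 (Ndufs5) and the highest 0.24 (Cyc1). In 39 members every null array lay below every wild-type array, which held for 19% of all genes. Null cells set against heterozygous cells gave 32 lower and 0 higher members (37.2% lower, against 7.49% of all genes; 6.84% of all genes were higher), with a median of -0.24 against -0.03 over all genes. There 40 members had all null arrays below all heterozygous arrays (18% of all genes). Between heterozygous and wild-type cells limma called 0 of 86, against 1.39% of all genes in either direction; 9 members had an unadjusted p under 0.05, 3 lower and 6 higher, and the median was 0.02. The comparisons share arrays, so the null-wild-type and null-heterozygous values are not independent of each other.

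**Figure D1:**
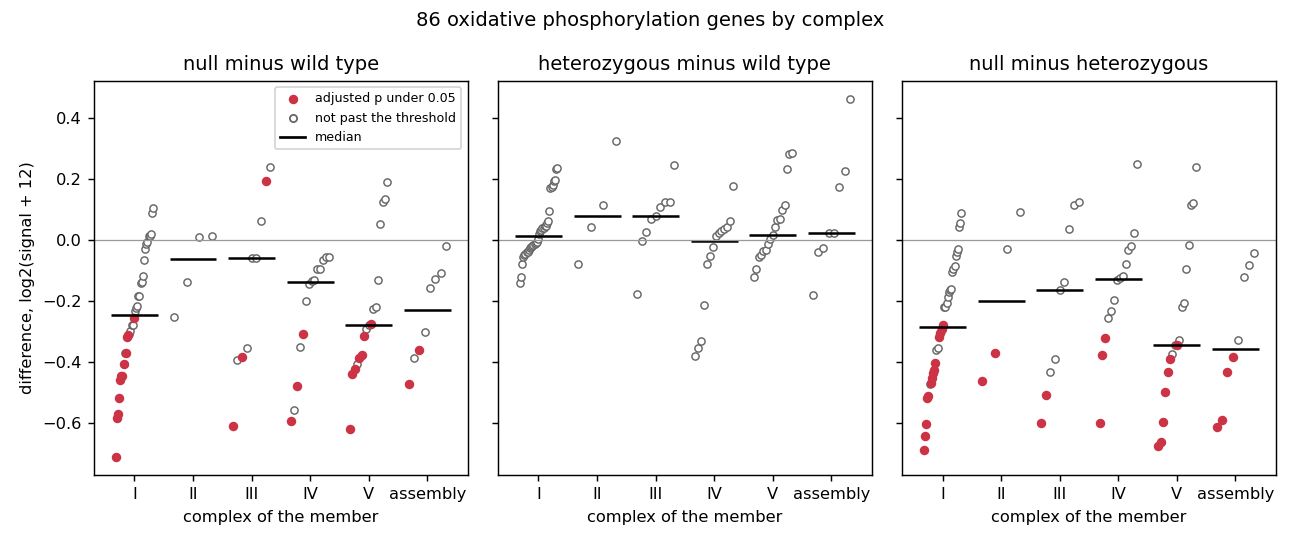
Difference of each of the 86 tested genes (points, log2(signal + 12), vertical axis) by complex (horizontal axis) in the 3 comparisons of genotypes; filled red points have an adjusted p under 0.05 in limma and black lines are medians. Red points lie below 0 in both comparisons with null cells, apart from Uqcrc2 at 0.19 above wild type, and the middle panel has none.

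The number of called members depended on single arrays. In null against wild type, 12 members were called without null replicate 3, 15 without wild-type replicate 3 and 17 without wild-type replicate 2. The share of members called lower was then 14%, 17.4% and 17.4%, and that of all genes 5.07%, 5.45% and 5.57%. In null against heterozygous, 18 were called without null replicate 3, 17 without heterozygous replicate 1 and 21 without heterozygous replicate 2, with 20.9%, 19.8% and 24.4% of members lower against 4.17%, 4.1% and 4.67% of all genes. Median differences stayed between -0.26 and -0.21 for null against wild type when 1 array was left out. Without wild-type replicate 2 the 15 lower members were 9 of complex I, 1 each of complexes III and IV, 3 of complex V and 1 assembly factor, and the 2 higher ones were Uqcrc2 and Cyc1 (0.30, adjusted p 0.0388). Atp5g2, Atp5j, Atp5k, Atp5mpl, Cox7a2, Cox7c, Ndufaf5, Ndufb7, Ndufb9, Ndufb11 and Uqcr11 lost their calls there, with adjusted p-values of 0.0516 to 0.158. Their differences stayed below 0, between -0.52 and -0.21.

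Members are bright and short genes, so the same calls were counted over genes of like brightness and length. Among the 3367 genes at least as bright as the members' lower quartile, 10.7% were lower and 15.1% higher in null than in wild type, and 11.2% were lower than in heterozygous cells. Among the 1000 of these whose genomic span was no longer than the members' upper quartile of 12849.75 bp, the shares were 21.7% and 25.1%. Of the 47 members meeting both limits, 18 (38.3%) were lower than wild type and 20 (42.6%) lower than heterozygous. The median span was 7336.5 bp for members and 22406 bp for all tested genes, and within the members 5676 bp for those lower than wild type and 7502.5 bp for the others. The part of gene length in the result was not tested beyond these counts.

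Other gene groups, chosen by symbol with no limit on brightness or span, were counted in the same way. Among 76 mitochondrial ribosomal protein genes, 19 (25%) were lower in null than in wild type and 32 (42.1%) lower than in heterozygous cells. The prefixes Rpl and Rps also caught 4 tested genes that are no ribosomal proteins, such as the kinase gene Rps6ka3, and Psm caught Psmc3ip; these were left out. For the other 46 cytosolic ribosomal protein genes 15 (32.6%) were lower in each comparison. The 38 proteasome subunit genes had 2 lower (5.26%) than wild type and 1 lower (2.63%) than heterozygous, with medians of -0.05 and -0.02. The shares for oxidative phosphorylation thus lay among those of the ribosomal protein groups and were not shown to differ from them.

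**Figure D2:**
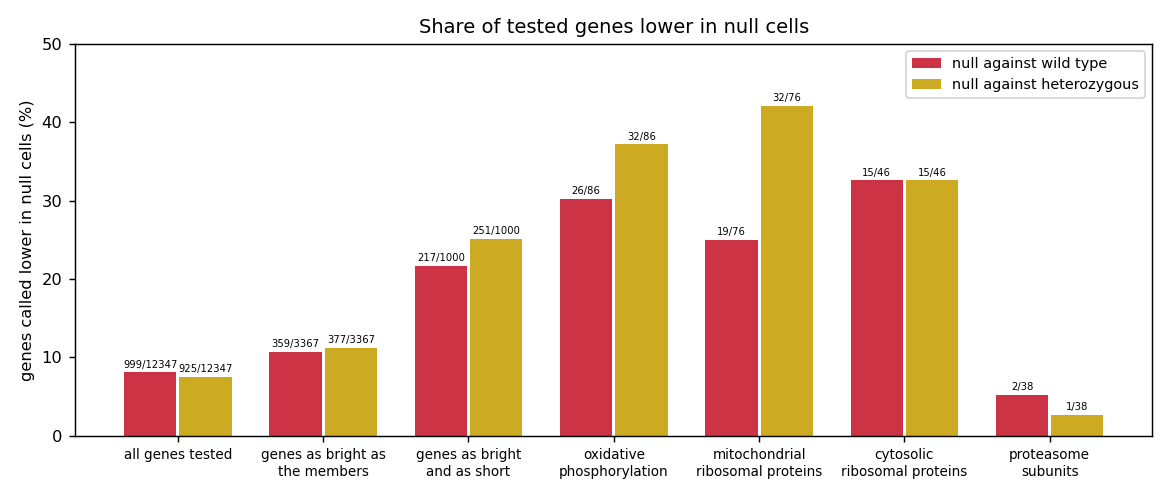
Share of tested genes called lower in null cells (percent, vertical axis, counts above the bars). Bars show all genes, bright genes, bright and short genes, oxidative phosphorylation genes and 3 other gene groups. Bright genes are at or above the members' lower quartile of level, and short ones at or under their upper quartile of span. The oxidative phosphorylation bars hold all 86 tested members. Oxidative phosphorylation genes reach 30.2% and 37.2%, the bright and short genes 21.7% and 25.1%, and the proteasome 5.26% and 2.63%.

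Complex I, which takes electrons from NADH, had 12 of 34 tested members lower in null than in wild type and 14 lower than in heterozygous cells, with medians of -0.24 and -0.28. None was higher. Ndufs5, an accessory subunit facing the intermembrane space, had the largest difference. Its signals were 183.3, 210.2 and 188.1 in the wild-type arrays, 215.8, 180.1 and 176.7 in the heterozygous and 95.48, 124.5 and 123.2 in the null. Every null array was below the 6 others, with log2 differences of -0.71 (SE 0.12, adjusted p 0.00155) from wild type and -0.69 (adjusted p 0.00238) from heterozygous. Ndufb10, a membrane-arm accessory subunit, read 853.9, 846.2 and 869.6 in wild-type, 941.9, 830.5 and 793.7 in heterozygous and 586.7, 683.4 and 594.6 in null arrays. The null arrays again formed a group of their own, with differences of -0.46 (SE 0.09, adjusted p 0.00301) and -0.45 (adjusted p 0.00376).

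The Ndufb genes, which encode accessory subunits of the membrane arm, had 6 of 10 tested members lower than wild type and 5 lower than heterozygous, and all 10 had a difference below 0 in both comparisons. Ndufb3 read 1486, 1373 and 1397 in wild-type, 1562, 1349 and 1226 in heterozygous and 906, 1148 and 926 in null arrays. The null arrays did not overlap either group, with differences of -0.52 (adjusted p 0.00421) and -0.47 (adjusted p 0.00799). For Ndufb2 the signals were 377.4, 470 and 449.4 in wild-type and 297.4, 307.2 and 250 in null arrays, a difference of -0.58 (adjusted p 0.00644). A dim probe set of Ndufb2, with group means of 16.01 to 22.5, differed by 0.26 in the opposite direction (adjusted p 0.546 over probe sets). Another, with group means of 149.3 to 213.2, differed by -0.37 from wild type (adjusted p 0.0877) and -0.47 from heterozygous (adjusted p 0.0378). The call against wild type was lost on the mean of all probe sets (adjusted p 0.251). Ndufb7, Ndufb9 and Ndufb11 differed from wild type by -0.31, -0.26 and -0.32. Their adjusted p-values of 0.0359, 0.0497 and 0.0355 lay close to the threshold, and the call of Ndufb9 was lost under 10 of 19 other settings. A dimmer probe set of each was also lower than wild type (-0.42, -0.49 and -0.44, adjusted p 0.0181, 0.00519 and 0.0194 over probe sets). Another of Ndufb11 was not called (-0.30, adjusted p 0.0871).

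Among Ndufa genes, accessory subunits of both arms, 4 of 13 were lower than wild type and 6 lower than heterozygous. Ndufa8, which faces the intermembrane space, read 617.7, 697.7 and 612.8 in wild-type, 827.9, 683.4 and 708.1 in heterozygous and 455.6, 493.9 and 455.4 in null arrays. Its null arrays were below all others, with differences of -0.45 (adjusted p 0.00503) from wild type and -0.64 (adjusted p 0.000514) from heterozygous. Ndufa6 and Ndufa7, subunits of the matrix arm, had null signals of 282.8 to 300.1 and 152.2 to 162.4, against wild-type signals of 373 to 406.1 and 229.1 to 259.7. They differed by -0.40 (adjusted p 0.00559) and -0.57 (adjusted p 0.00468). Ndufa2 differed by -0.45 (adjusted p 0.0152), and Ndufc1, a membrane-arm subunit, by -0.37 (adjusted p 0.00886), its null signals of 1524 to 1678 lying below the wild-type range of 1933 to 2290. Ndufa3 was called in null against heterozygous alone (-0.51, adjusted p 0.014). A dimmer probe set was also lower (-0.42, adjusted p 0.0451 over probe sets). Another, with group means of 7.928 to 9.955, went the other way (0.14, adjusted p 0.731). By their brightest probe sets, Ndufa5 and Ndufc2 were also called against heterozygous alone (-0.32, adjusted p 0.0304, and -0.28, adjusted p 0.0393). Their differences from wild type were -0.28 and -0.22. A dimmer probe set of Ndufc2 was called lower than wild type (-0.41, adjusted p 0.0484 over probe sets). The remaining ones of Ndufc2 and the dimmer one of Ndufa5 were not called against wild type. Ndufs4, an accessory subunit despite its symbol, had a difference of -0.37 that missed the threshold (adjusted p 0.0685). Ndufa1, Ndufa10, Ndufa12, Ndufb1, Ndufb5, Ndufb6 and Ndufb8 differed from wild type by -0.31 to -0.14 without a call by their brightest probe sets. A dimmer probe set was lower than wild type for Ndufa12 (-0.36, adjusted p 0.00988 over probe sets) and Ndufb5 (-0.46, adjusted p 0.0098). Another of Ndufa12 was not called (-0.23, adjusted p 0.151), nor were the dimmer ones of Ndufa10, Ndufb6 and Ndufb8. Ndufa9, Ndufa13, Ndufab1, the mitochondrial acyl carrier protein, and Ndufv3 lay between -0.01 and 0.11.

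The brightest probe sets of the electron-carrying core of complex I were not called. Ndufs1, Ndufs3, Ndufs7, Ndufs8, Ndufv1 and Ndufv2 hold its flavin or iron-sulfur centres or line the path of electrons, and 0 of these 6 passed limma's threshold in either comparison with null cells by these probe sets. Of the 7 core genes known in the nucleus, 1 was not analysed here. None had an unadjusted p under 0.05 against wild type, and 1 did against heterozygous (Ndufs7, -0.30, adjusted p 0.0585). Their median difference from wild type was -0.05, and that of the 28 accessory genes was -0.29, 12 of which were called. Dimmer probe sets gave calls for 2 core genes: 1 of Ndufs8 was lower than wild type (-0.35, adjusted p 0.0225 over probe sets) and heterozygous (-0.33, adjusted p 0.0344), and 1 of Ndufs7 was lower than heterozygous (-0.47, adjusted p 0.0125). This division was drawn after the values were seen, and the difference between core and accessory genes was not tested. Ndufs1, its largest core subunit, read 630.3, 670.2 and 608.5 in wild-type and 659.7, 660.1 and 714.1 in null arrays, which overlap (0.09, adjusted p 0.54). Ndufv2, among the brightest genes of the complex, had means of 2963 ± 207.3 in wild-type and 2905 ± 256.3 in null cells (SD, n = 3).

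**Figure D3:**
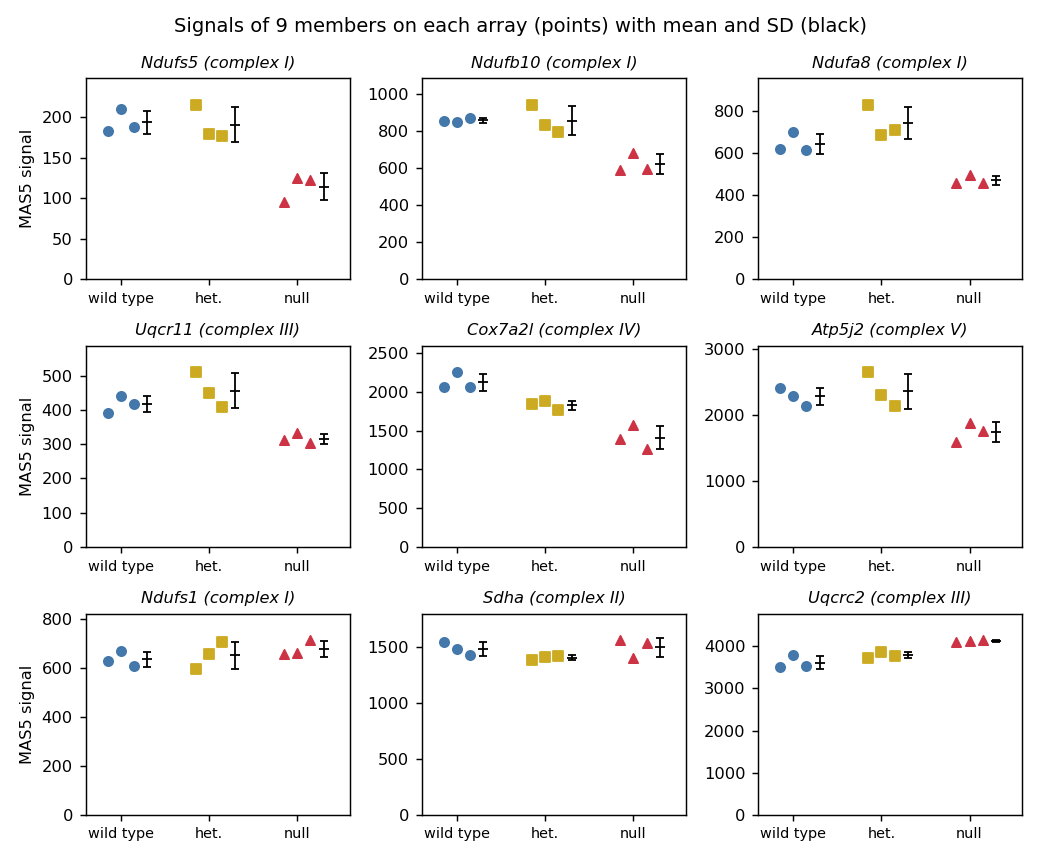
MAS5 signal (vertical axis, from 0) of 9 genes on each wild-type, heterozygous and null array (points), with the mean and SD of 3 arrays in black. Null arrays lie below both other groups in the upper 6 panels, overlap them for Ndufs1 and Sdha, and lie above them for Uqcrc2, at 4110 to 4143.

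The 8 complex I assembly factors, which help build the complex and are not part of it, all had a difference below 0 from wild type, with a median of -0.23. Ndufaf2 read 138.3, 129.1 and 140.4 in wild-type and 85.86, 101.4 and 97.32 in null arrays, with no overlap (-0.47, adjusted p 0.0165), and Ndufaf5 was also lower (-0.36, adjusted p 0.0482), a call lost under 13 of 19 other settings. Against heterozygous cells 4 were lower, Ndufaf2, Ndufaf3, Ndufaf5 (lost under 11 of 19 other settings) and Ndufaf8. Ndufaf3 read 133.3, 114.7 and 100.9 in heterozygous, 84.85, 65.42 and 69.15 in null and 76.43, 86.44 and 79.24 in wild-type arrays. Its heterozygous arrays stood above both other groups, and the null difference was -0.59 from heterozygous (adjusted p 0.00917) but -0.13 from wild type (adjusted p 0.585). Ndufaf8 went from 362.5, 247.7 and 239.1 in heterozygous to 175.4, 184.2 and 173.6 in null arrays (-0.61, adjusted p 0.0085), below the 213.7 to 256.7 of wild type as well. Ndufaf1, Ndufaf4, Ndufaf6 and Ndufaf7 differed from wild type by -0.30 to -0.02, none called.

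Complex II, succinate dehydrogenase, had 0 of 4 members called against wild type by limma (1 with an unadjusted p under 0.05, Sdhc) and 2 lower against heterozygous. Sdha, the flavoprotein that oxidises succinate, read 1545, 1481 and 1422 in wild-type, 1379, 1409 and 1418 in heterozygous and 1558, 1399 and 1529 in null arrays. Sdhb, the iron-sulfur subunit, stayed within 1516 to 1648 on all 9 arrays, and neither gene was called. For Sdha every heterozygous array lay below every wild-type array, with a difference of -0.08 (adjusted p 0.721). The membrane anchors Sdhc and Sdhd were lower in null than in heterozygous cells, with differences of -0.37 (adjusted p 0.022) and -0.46 (adjusted p 0.00552). A dimmer probe set of each was not called against heterozygous (-0.13, adjusted p 0.658, and -0.30, adjusted p 0.182, over probe sets). The call of Sdhc was lost under 6 of 19 other settings, the mean of all probe sets among them, and that of Sdhd held under all 19. Sdhd read 528.5, 443.7 and 441.8 in heterozygous, 317.8, 348.8 and 348.2 in null and 348.7, 377.9 and 392.3 in wild-type arrays. Its heterozygous arrays were above all others, by 0.32 from wild type (adjusted p 0.129), and null and wild type differed by -0.14 (adjusted p 0.384).

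Complex III, which passes electrons from ubiquinol to cytochrome c, held members of both directions: 2 of 9 were lower than wild type and 1 was higher. Uqcrh, the hinge protein beside cytochrome c1, read 642, 693.1 and 862.6 in wild-type, 837.4, 590.5 and 534.9 in heterozygous and 446.9, 498.7 and 473.6 in null arrays. Its wild-type and heterozygous arrays were widely spread, but null arrays lay below all of them. The differences were -0.61 from wild type (SE 0.14, adjusted p 0.0107) and -0.43 from heterozygous (adjusted p 0.0596). A second Uqcrh probe set of similar brightness gave -0.21 from wild type (adjusted p 0.405 over probe sets) and -0.54 from heterozygous (adjusted p 0.0315). The call against wild type was lost on the mean of all probe sets. Uqcr11, a small subunit whose promoter is printed above, read 391.9, 439.5 and 417.2 in wild-type, 509.1, 450.3 and 409.1 in heterozygous and 311.3, 332.5 and 304.1 in null arrays. The null arrays did not overlap the others (-0.38, adjusted p 0.0144; -0.51, adjusted p 0.00323).

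Uqcrc2, a core protein of complex III that helps hold the dimer together, was the 1 member called higher. Its signals were 3518, 3792 and 3530 in wild-type, 3730, 3869 and 3766 in heterozygous and 4110, 4130 and 4143 in null arrays. Null arrays were above all others, by 0.19 from wild type (SE 0.06, adjusted p 0.0461) and 0.12 from heterozygous (adjusted p 0.204), and the call from wild type was lost under 12 of 19 other settings. Cyc1, cytochrome c1 itself, had 1461, 1625 and 1434 in wild-type and 1621, 1878 and 1853 in null arrays and missed the threshold (0.24, adjusted p 0.0576). Uqcrfs1, the Rieske iron-sulfur protein, and Uqcrc1 differed from wild type by 0.06 and -0.06, and Uqcrb, the brightest member of the complex, by -0.06. Uqcr10, another small subunit, had a difference of -0.39 with an adjusted p of 0.0657. A dimmer probe set of Uqcr10, with group means of 43.4 to 68.68, was called in both comparisons. It gave -0.49 from wild type (adjusted p 0.043 over probe sets) and -0.55 from heterozygous (adjusted p 0.0279). A further dim one was not called (-0.35 from wild type, adjusted p 0.154). Uqcrq was lower than heterozygous (-0.60, adjusted p 0.0049) with signals of 187.9, 159.9 and 143.2 in heterozygous and 98.31, 104 and 107.6 in null arrays. A dimmer probe set of Uqcrq gave 0.19 (adjusted p 0.636 over probe sets), and another -0.01 (adjusted p 0.989).

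Complex IV, cytochrome c oxidase, had 3 of 14 tested members lower in each comparison with null cells, with medians of -0.14 and -0.13. All 14 had a difference below 0 from wild type. Cox7a2l, the supercomplex factor, had the smallest p of all members against wild type. It read 2059, 2252 and 2063 in wild-type, 1843, 1880 and 1766 in heterozygous and 1391, 1572 and 1269 in null arrays. The groups did not overlap and heterozygous arrays lay between the other groups: null differed from wild type by -0.59 (SE 0.08, adjusted p 0.000327) and from heterozygous by -0.38 (adjusted p 0.00762), and heterozygous from wild type by -0.21 (adjusted p 0.27).

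The isoform families of complex IV were read mostly through their widely expressed forms. Cox7a2 read 4100, 4142 and 3999 in wild-type and 3344, 3578 and 2991 in null arrays, without overlap (-0.31, adjusted p 0.0421, lost under 9 of 19 other settings), while its muscle isoform Cox7a1 was too dim to test. Cox6b1 was called against heterozygous alone (-0.32, adjusted p 0.0153; -0.14 from wild type), as was the testis isoform Cox6b2 at a low signal of 28.62 to 79.18 over the 9 arrays (-0.60, adjusted p 0.0497, lost under 12 of 19 other settings). Cox4i1, Cox6a1 and Cox8a differed from wild type by -0.20, -0.13 and -0.13, and their isoforms Cox4i2, Cox6a2 and Cox8c by -0.09, -0.09 and -0.35, none called. Cox7c, a small subunit, had 156.5, 151.4 and 175 in wild-type, 124.7, 125 and 119.9 in heterozygous and 122.6, 137.4 and 82.7 in null arrays (-0.48, adjusted p 0.0404), and its call was lost under 13 of 19 other settings, with adjusted p-values of up to 0.164. Here heterozygous and null arrays overlapped and both lay below wild type, with -0.35 for heterozygous (adjusted p 0.317). Cox5a and Cox5b, the brightest members of the complex, and Cox6c differed from wild type by -0.06, -0.07 and -0.06 and were not called, and Ndufa4, counted under complex I by its symbol, by 0.01.

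Complex V, the ATP synthase, had 7 of 17 members lower in each comparison with null cells, with medians of -0.28 and -0.34. Those lower than wild type were Atp5e, Atp5g2, Atp5g3, Atp5j, Atp5j2, Atp5k and Atp5mpl. Atp5e, the epsilon subunit of the central stalk, read 240.1, 228.5 and 262.9 in wild-type, 301.1, 195.8 and 187.4 in heterozygous and 147.8, 183.8 and 135.5 in null arrays. The null arrays were below the rest, closely so for heterozygous (-0.62 from wild type, SE 0.16, adjusted p 0.0169; -0.50 from heterozygous, adjusted p 0.0497). The call against heterozygous was lost under 14 of 19 other settings, with adjusted p-values of up to 0.202. Atp5j2, the f subunit of the membrane part, read 2403, 2287 and 2139 in wild-type, 2639, 2300 and 2124 in heterozygous and 1587, 1879 and 1754 in null arrays, again without overlap (-0.39, adjusted p 0.00976; -0.43, adjusted p 0.00597). Atp5k, the e subunit, which supports dimers of the synthase, read 592.5, 620.6 and 594.1 in wild-type, 772.9, 805.6 and 575.6 in heterozygous and 493.6, 428.5 and 405.1 in null arrays. Its differences were -0.44 (adjusted p 0.0202) and -0.67 (adjusted p 0.00189).

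The 3 genes Atp5g1, Atp5g2 and Atp5g3 encode the same c subunit of the proton-driven rotor. Atp5g2 read 288.3, 310.6 and 289.5 in wild-type, 417.7, 336.3 and 340.1 in heterozygous and 235.4, 240 and 201.9 in null arrays. The 3 groups did not overlap, with heterozygous highest: null differed by -0.38 from wild type (adjusted p 0.0272) and by -0.66 from heterozygous (adjusted p 0.00114), and heterozygous by 0.28 from wild type (adjusted p 0.255). Atp5g3 was lower than wild type (-0.27, adjusted p 0.0298) but not called against heterozygous (-0.22, adjusted p 0.0783), and for Atp5g1 the calls were the other way round (-0.29, adjusted p 0.132; -0.39, adjusted p 0.0491, lost under 13 of 19 other settings). Atp5j, a coupling factor of the peripheral stalk, followed the same order as Atp5g2 with null arrays at 771.2 ± 48.58 (SD, n = 3), wild-type at 961.2 ± 67.76 and heterozygous at 1176 ± 158.8. Its differences from null were -0.31 (adjusted p 0.0432) and -0.59 (adjusted p 0.00133). Atp5mpl, a small proteolipid of the membrane part, was lower than wild type (-0.42, adjusted p 0.0196) and missed the threshold against heterozygous (-0.33, adjusted p 0.0657), and Atp5d, the delta subunit of the central stalk, was called against heterozygous alone (-0.34, adjusted p 0.0188). Atp5md, Atp5l, Atp5o and Atp5h differed from wild type by -0.41, -0.28, -0.22 and -0.13, none called.

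The catalytic head of the synthase was not lower in null cells. Atp5a1 and Atp5b, which form the ring that makes ATP, differed from wild type by 0.13 (adjusted p 0.283) and 0.19 (adjusted p 0.255), with null and wild-type arrays overlapping. Atp5c1, the central shaft, differed by 0.05. Atp5pb, the b subunit of the peripheral stalk, read 6040, 5701 and 6084 in wild-type, 6171, 5747 and 5949 in heterozygous and 6214, 6769 and 6465 in null arrays. Every null array was above every other array, yet the difference of 0.13 missed the threshold (adjusted p 0.203).

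Arrays of 1 genotype differed in how far the members as a whole were shifted. The mean deviation of the 86 genes from their 9-array means was -0.21 to -0.07 on null arrays, -0.02 to 0.23 on heterozygous and 0.04 to 0.09 on wild-type arrays. Null replicate 3 held the lowest value of 41 members and heterozygous replicate 1 the highest value of 52. The within-group SD of members was 0.13 at the median (log2), against 0.17 for all tested genes and 0.11 for the bright ones. The Gapdh 3′ to 5′ signal ratio, a measure of RNA integrity and of labelling, was 7.108 to 7.725 on null, 6.002 to 6.328 on heterozygous and 6.564 to 7.437 on wild-type arrays; for Actb the ranges overlapped (7.285 to 8.248, 7.478 to 8.445 and 7.199 to 10.15). The signal of the 18S ribosomal RNA 5′ control was 2548 to 3128 on heterozygous arrays, above 1338 to 1830 on null and 906.6 to 1932 on wild-type arrays, and was highest on heterozygous replicate 1. The part of these measures in the result was not tested.

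**Figure D4:**
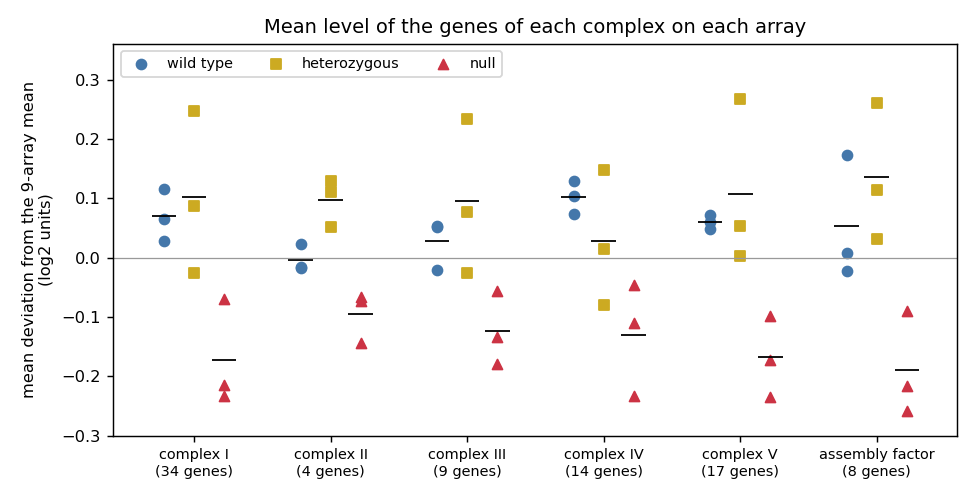
Mean deviation of the tested genes of each complex from their 9-array mean (log2 units, vertical axis) on each wild-type, heterozygous and null array (points), with group means as black lines. Null arrays are below 0 in every complex, between -0.26 and -0.05, and heterozygous replicate 1 lies highest in all 6 classes.

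Other tested probe sets of the members mostly had a difference below 0. The 49 genes with another tested probe set had 81 of them, of which 65 had a difference below 0 from wild type, 18 were lower and 0 higher (limma, adjusted over probe sets). The same counts against heterozygous were 65, 22 and 0. Of all genes tested, by their brightest probe sets, 56.1% were below 0 and 8.09% lower against wild type. Against heterozygous these shares were 54.4% and 7.49%. Shares over all probe sets were not counted. Of the 86 probe sets used, 18 are of the kinds marked x_at or s_at, which can bind more than 1 transcript. For 5 of the 26 lower genes the probe set used is such a one: Atp5e, Atp5j2, Atp5k, Cox7c and Ndufa2. Atp5j2, Atp5k and Cox7c each also had a probe set of neither kind called lower than wild type (-0.49, -0.42 and -0.70). That of Cox7c was dim, with group means of 16.74 to 34.37. A further, dim probe set of Atp5j2 was not called (-0.16, adjusted p 0.653 over probe sets).

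Genes that serve the respiratory chain without being part of it were counted from lists. Among 45 tested genes listed as assembly factors of the respiratory complexes, 13 (28.9%) were lower in null than in wild type, against 8.09% of all genes. Of the 45, 0 were higher, and the median was -0.18. That list holds the 8 Ndufaf genes; without them 11 of 37 were lower. Against heterozygous 14 of the 45 were lower and 2 higher, with 10 of the 37 lower, against 7.49% of all genes. Uqcc2, an assembly factor of complex III, differed by -0.81 (adjusted p 0.00122), and Cox17, the copper chaperone of complex IV, by -0.69 (adjusted p 0.00127). Slirp, which the list holds although it stabilises mitochondrial mRNAs rather than building a complex, was lower (-0.70, adjusted p 0.000296). So was Pet100, a complex IV assembly factor (-0.70, adjusted p 0.00185). Of 13 genes for cytochrome c and ubiquinone synthesis limma called 0 against wild type (3 with an unadjusted p under 0.05) and 1 higher against heterozygous.

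Enzymes of the tricarboxylic acid cycle, which supplies NADH and succinate to the chain, had no lower member among 15 tested and 3 (20%) higher than in wild type, with a median of 0.14. Of all genes 7.6% were higher, and of the bright ones 15.1%. The 3 higher ones were Pdhb of pyruvate dehydrogenase (0.32, adjusted p 0.0182), Fh1, fumarase (0.25, adjusted p 0.0343), and Mdh2, malate dehydrogenase (0.22, adjusted p 0.0402). Against heterozygous 2 (13.3%) were higher, against 6.84% of all genes and 13.5% of the bright ones. Of 18 regulators of mitochondrial biogenesis, 1 was higher and 1 lower than wild type, 5.56% each, which is no larger than the shares of all genes. These were Gabpa, the DNA-binding part of GABP (0.34, adjusted p 0.0371), and Twnk, the mitochondrial DNA helicase (-0.46, adjusted p 0.0144). Nrf1 itself differed by -0.20 (adjusted p 0.403).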

How the data were processed

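The authors' deposited value table held MAS5 signal intensities for 45101 probe sets on 9 arrays, per the submitters' processing notes; each array's trimmed mean was 100 when 2% of values were dropped at each end. No scanner files were used, and sources used here give neither software version nor extraction or scan batches. GEO's platform annotation gave 34945 probe sets 1 symbol, 932 several and 9160 none, the 64 controls apart; several-symbol probe sets were left out. Signals were taken as log2(signal + 12), and the brightest probe set by mean stood for each gene. Genes at or above the 40th percentile of mean level over all probe sets other than controls (signal 8.49) were tested, 12347 in all. limma 3.58.1 (R 4.3.3; lmFit, eBayes with an intensity trend, two-sided) was fitted on all 9 arrays in 3 groups, and p-values were adjusted by Benjamini-Hochberg over all genes tested. The smallest exact permutation p for 3 against 3 arrays is 0.1, so no exact test was made. The number of arrays limits the precision. Arrays of 1 genotype correlated at 0.9835 to 0.989, and no columns held identical values. The members, gene lists and rules for naming genes were chosen with earlier results of these data known; genes named are called members by smallest p, the brightest and smallest-p genes of each complex, isoform families and called genes of the lists, and others were named after their values were seen. Ribosomal and proteasome groups were taken by symbol prefix, and genes of other proteins caught by it were left out after values were seen. Alternatives covered the pseudocount, the filter, the normalization, the intensity trend, the probe set rule, the samples fitted, a replicate block and each array left out.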

Additional observations from a re-analysis of the deposited data

How the results depend on the processing

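Null against wild type gave 24 to 30 called members, and null against heterozygous 25 to 33, under pseudocounts of 1 and 32, a filter at the 60th percentile, quantile and cyclic loess normalization, the 2 compared groups fitted alone and the mean of all probe sets; of the 26 and 32 lower members, quantile normalization shared 24 and 28 and the mean of all probe sets 20 and 22. Testing dim genes as well gave 18 and 25. Heterozygous against wild type gave 0 under every alternative. Without the intensity trend the counts fell to 10 and 16. Leaving out each array in turn gave 12 to 29 called members for null against wild type (medians -0.26 to -0.21), 17 to 38 for null against heterozygous (medians -0.32 to -0.17) and 0 for heterozygous against wild type (medians -0.04 to 0.07). Of the 59 member calls of both comparisons, 18 held under all 19 alternatives, 40 lost the threshold under at least 1, 8 of them under 10 or more, and 1 reversed: Uqcrq in null against heterozygous was 0.0729 (adjusted p 0.728) on the mean of its probe sets. The cause was not tested. With the replicate number as a block, 32 members were called in null against wild type (2 higher, 30 lower), 37 in null against heterozygous and 0 in heterozygous against wild type. Deviations of same-numbered arrays correlated at -0.031 to 0.177, not all above 0.1, and of others at -0.146 to 0.076, and the labels tie no number to an animal or day, so the numbers were not taken to pair the arrays. That 7 of 9 arrays correlated best with one of their own number is a hint of pairing from the data. Over all genes the null against wild type median was -0.0431, and -0.0025 under quantile and 0.0061 under loess normalization. The arrays give signals with no counts behind them, so genes near background, such as Cox4i2, have little power.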
